A study of Homo sapiens with 2 samples.

Results

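The 9 genes described here encode S100 calcium-binding proteins: S100A2, S100A4, S100A6, S100A10, S100A11, S100A13, S100A14, S100A16 and S100P. They were taken as the entries of the deposited expression table whose Entrez gene ID belongs to these gene symbols, and all 9 of them were found among the 23033 genes with a value. RNAseq was run on total RNA from cells that carry the label T-47D (a breast cancer line of luminal type), of genotype WT (the control) and FZR1 ko. Both cultures received cisplatin at 2 µg/ml, so cells without the drug are not part of the comparison. The FZR1 ko line was made with CRISPR/Cas9 and single cell screening and is therefore a clone, and FZR1 encodes an activator of the anaphase-promoting complex, the ubiquitin ligase of mitotic exit and G1. Each condition has 1 library, so the differences below have no replicate check and no test was made, and a difference between these libraries and a difference between the genotypes cannot be told apart.

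S100 proteins are small proteins with a pair of EF-hand motifs, the helix-loop-helix folds that hold calcium. Most of them form dimers, open a binding face when calcium rises, and then attach to a partner protein such as an annexin, a myosin heavy chain or ezrin. Many S100 genes lie together at 1q21 on chromosome 1, and several members are known for high levels in carcinomas and for roles in cell motility, secretion and the response to stress.

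Levels are given in FPKM, fragment numbers corrected for the length of the transcript and for the mapped total, which can be set side by side between genes because of the scaling to length. A ratio is the log2 of FPKM + 1 in FZR1 ko over FPKM + 1 in control, and the added 1 FPKM understates the ratio of low genes. Ratios were compared over the 13554 genes that reached 1 FPKM in either library, and all 9 S100 members were among them. Read numbers cannot be taken from FPKM, so the depth is unknown. Among 271 short RNA genes, 46 had FZR1 ko values 0.977 times those of control (within 0.5%), the most frequent ratio. If these genes had equal read numbers in the libraries, which was not tested, the relative depth of FZR1 ko is about 1.02. FZR1 mRNA was at 12.3 FPKM in the control library and 10.1 in the FZR1 ko library, a level that does not check the label, since small deletions can leave an mRNA in place. Of 12 luminal markers, 6 were under 1 FPKM in both libraries (among them ESR1, PGR, GATA3, SPDEF and CDH1), which goes against a luminal identity, whereas KRT8 and KRT18, at 829 and 552 FPKM in control, were high. Of 10 mesenchymal and basal markers only KRT5 and KRT14 were under 1 FPKM in both. The summed level of the luminal markers was 1498 FPKM in the control library and 1833 in the FZR1 ko library, of which KRT8 and KRT18 made up most, since the other 10 summed to 117 and 95.0 FPKM. That of the mesenchymal and basal markers was 434 and 453 FPKM. Of the 10, 6 were lower and 4 higher, with 2 past 2-fold upwards and 0 downwards. Those 2 were CDH2, at 2.97 and 15.3 FPKM, and AXL, at 16.02 and 37.8 FPKM, while SNAI2 was lower, at 7.05 and 3.86 FPKM (-0.73). The part of these markers in the S100 differences was not tested.

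Every S100 member was lower in FZR1 ko than in control, by 16.7% to 46.99% in FPKM. Together the 9 genes summed to 3967 FPKM in the control library and 2641 in the FZR1 ko library, which is 33.4% lower (log2 ratio -0.59). Their share of all FPKM was 0.789% in control and 0.528% in FZR1 ko, while the sum over all genes was nearly equal in the libraries (502589 and 500488 FPKM). In bulk RNA, fewer cells expressing a gene and less RNA per cell cannot be told apart. None of the 9 members reached a 2-fold difference, a size at which 6.72% of the 13554 genes lay below control in FZR1 ko and 6.78% above it. What the members had in common was the direction and not a large size: 9 of 9 were lower by some amount, beside 50.3% of all genes compared. The members were chosen with earlier results of these data known, so this contrast is a description only. The median ratio of the members was -0.59, beside -0.0048 over all genes compared, and the quartiles of all genes lay at -0.42 and 0.43.

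**Figure D1:**
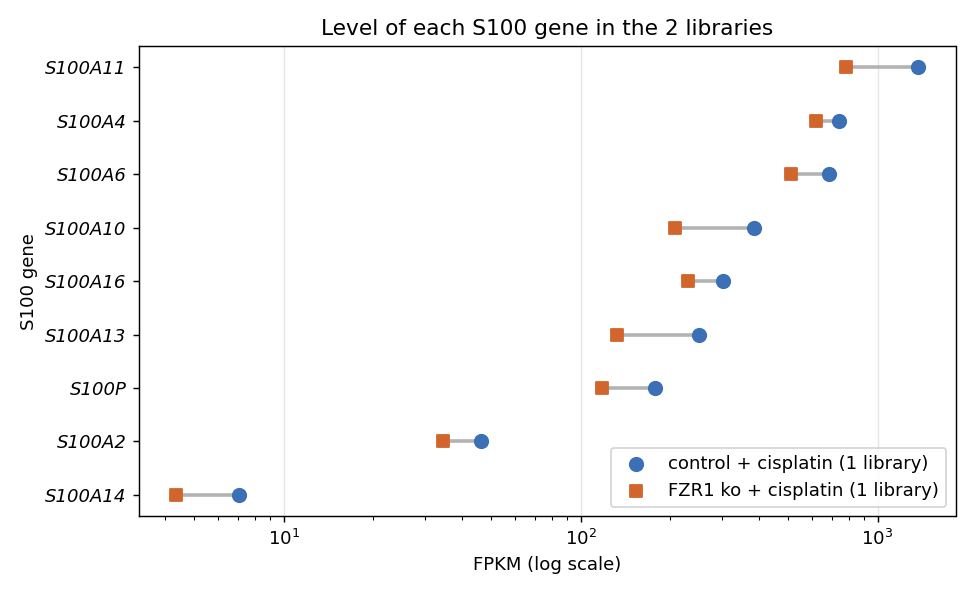
FPKM of each S100 gene (log axis) in the control library (circles) and the FZR1 ko library (squares), both with cisplatin, with genes ordered by their control level and 1 library per condition. The square lies left of the circle for all 9 genes, from S100A11 (1373 and 783 FPKM) to S100A14 (7.10 and 4.35 FPKM).

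The S100 genes spanned a wide range of levels. S100A11 was the most abundant, the 23rd highest of the 13554 genes in control and the 84th in FZR1 ko. In control it was followed by S100A4, S100A6, S100A10, S100A16, S100A13, S100P, S100A2 and S100A14. The order was the same in FZR1 ko except that S100A10 (208 FPKM) stood below S100A16 (230 FPKM). Without replicates it cannot be said which neighbours in this order differ beyond their spread. Of the 9 members, 7 had at least 100 FPKM in both libraries, and S100A4 and S100A6 were within the highest 1% of genes in each. S100A2 ranked within the highest 15.5% of genes in control and 19.8% in FZR1 ko, and S100A14 was the only member below the middle of the genes compared, at rank 7663 in control and 9372 in FZR1 ko.

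The largest relative differences were those of S100A13, S100A10 and S100A11. S100A13, which takes part in the release of FGF1 and IL1A from cells by a route without a signal peptide, had 250.07 FPKM in the control library and 133 in the FZR1 ko library (ratio -0.91). S100A10, which no longer binds calcium and forms a tetramer with annexin A2 that takes part in plasminogen activation at the cell surface, had 383 and 208 FPKM (-0.87). S100A11, a partner of annexin A1, had 1373 and 783 FPKM (-0.81). These 3 genes were 43.0% to 46.99% lower in FZR1 ko, close to but short of the 2-fold limit. Because it is so abundant, S100A11 alone made up 44.5% of the fall in the summed FPKM.

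S100A14 and S100P stood in the middle of the range. S100A14, found mainly in epithelial cells, had 7.10 FPKM in the control library and 4.35 in the FZR1 ko library (-0.60), and at this level the pseudocount takes part in the ratio, which was -0.71 without it. S100P, first found in placenta and a partner of ezrin, had 179 and 118 FPKM (-0.59). It is the only member outside chromosome 1, and its ratio equalled the median of the 9.

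S100A2, S100A6, S100A16 and S100A4 differed least. S100A2, known from basal epithelial cells, had 46.3 FPKM in the control library and 34.3 in the FZR1 ko library (-0.42). S100A6, also called calcyclin, had 685 and 512 FPKM (-0.42), and S100A16, which is found in many tissues, had 301 and 230 FPKM (-0.39). S100A4, which binds the heavy chain of non-muscle myosin IIA and is known for its link to metastasis, had 743 and 619 FPKM (-0.26). It was the member with the smallest difference, 16.7% lower in FZR1 ko, and its share of the members' summed FPKM was 18.7% in control and 23.5% in FZR1 ko.

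**Figure D2:**
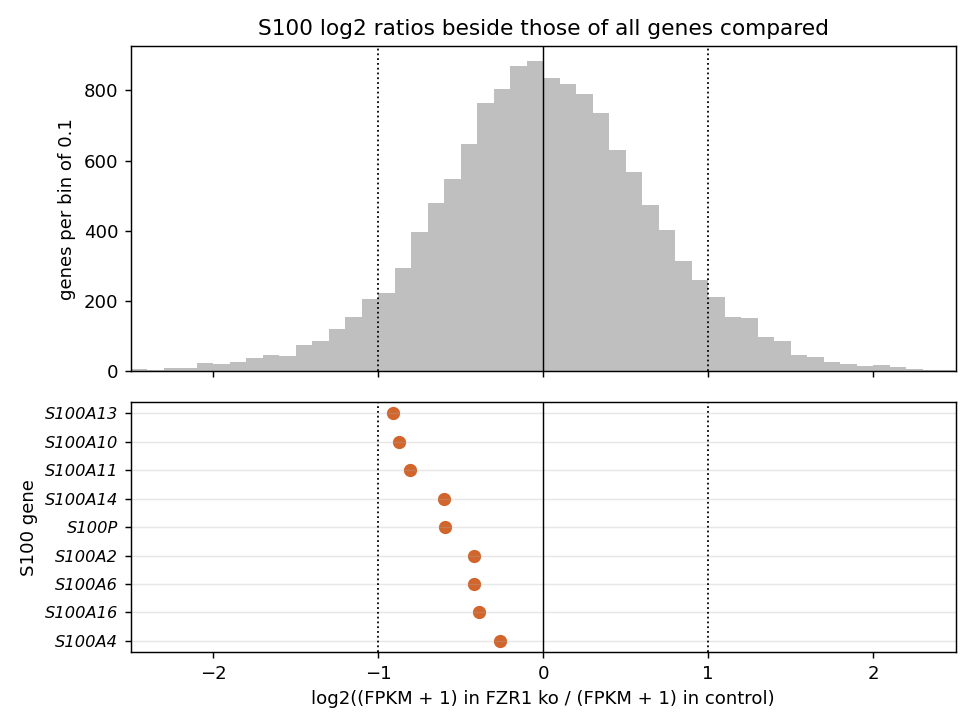
Upper panel, number of genes per bin of 0.1 of the log2 ratio, FZR1 ko over control, over all 13554 genes compared, 48 of which lie beyond the axis limits of 2.5 on either side. Lower panel, the same ratio for each S100 gene, with 1 library per condition. All 9 points lie between the dotted 2-fold line at -1 and 0, from -0.91 for S100A13 to -0.26 for S100A4.

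Among all genes compared, 8.15% had a ratio as low as that of S100A13 or lower, and 33.6% had one as low as that of S100A4 or lower, so no single member was extreme. Level and length were set beside this because the members are abundant and short. Of the 840 genes with a mean of at least 100 FPKM, 53.5% were lower in FZR1 ko, with a median ratio of -0.025. Past 2-fold, 32 of them were lower and 7 higher. The longest GENCODE transcript of a member runs from 471 bases for S100P to 2184 bases for S100A13, and the next longest is 1218 bases for S100A14. A limit of 2184 bases is thus set by S100A13 alone and does not match the other members in length. Of the 2368 protein-coding genes whose longest transcript is no longer than 2184 bases, 56.4% were lower, with a median ratio of -0.088, and 215 were past 2-fold downwards and 91 upwards. Of the 399 among them with a mean of at least 100 FPKM, 52.4% were lower and the median was -0.014, with 16 past 2-fold downwards and 1 upwards. Past 2-fold, abundant and short genes thus lay more often below control than above it, unlike all genes compared. When the trend of the ratio with GC content and transcript length was removed, a setting added after the values were seen, the median of the members was -0.36 in place of -0.59, and each of the 9 still lay below 0, from -0.76 for S100A13 to -0.12 for S100A4.

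The rest of the family had lower values than most members. Of 12 other S100 genes, 5 (S100A7A, S100A7L2, S100B, S100G and S100Z) had no value in either library. S100A7, S100A8 and S100A12, known from skin and from myeloid cells, were listed at 0 in both libraries, and S100A9 was listed at 0 in control and at 0.10 FPKM in FZR1 ko. The other three reached 1 FPKM in a library. S100A1, known from heart muscle, had 7.28 FPKM in the control library and 2.31 in the FZR1 ko library (-1.32), past 2-fold. S100A3, known from hair follicles, had 13.9 and 8.84 FPKM (-0.60), and S100A5 had 1.22 and 0.17 FPKM (-0.92). The FPKM of S100A5 in FZR1 ko was 0.139 times that in control, so that it stays short of the 2-fold limit only through the added 1 FPKM, and it was compared only because of its control value and had to come out lower. S100A3 and, in control, S100A1 were at or above the level of the member S100A14. The S100 genes that reached 1 FPKM in each of the libraries, which are the 9 members, S100A1 and S100A3, numbered 11, and all 11 were lower in FZR1 ko. The S100-fused genes of the skin barrier, among them FLG and TCHH, summed to 0.18 FPKM over 7 genes in each library, and none reached 1 FPKM.

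Position is a feature that most members share. On hg38, 8 of the 9 members lie on chromosome 1, all on the minus strand, in 2 groups. S100A10 (chr1:151982915-151993859) and S100A11 (chr1:152032506-152037004) lie within 54.1 kb of each other. The other 6, from S100A6 (chr1:153534599-153535991) to S100A13 (chr1:153618799-153634361), lie within 99.8 kb, 1498 kb further along, and S100P lies on the plus strand of chromosome 4 (chr4:6693878-6697170). Within the second group the ratio of the members ran from -0.26 for S100A4 to -0.91 for S100A13, so neighbours in the same group differed as much as any members did. The other protein-coding genes of the region, within 500 kb of the S100A genes on each side, did not share the direction. Of the 21 compared, in FZR1 ko 11 were lower and 10 higher, with a median ratio of -0.19. Of the abundant neighbours, RPS27, a ribosomal protein gene, was nearly equal in the libraries, with 1405 and 1469 FPKM (0.064). ILF2, an RNA-binding protein gene, with 362 and 233 FPKM (-0.64), and SLC39A1, a zinc transporter gene, with 331 and 220 FPKM (-0.59), were lower. Their ratios lay near the median of the members (-0.59). INTS3, a subunit of the Integrator complex, at 12.4 and 32.5 FPKM (1.33), was past 2-fold upwards, and OAZ3, an antizyme gene, at 5.34 and 1.16 FPKM (-1.55), was past it downwards.

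**Figure D3:**
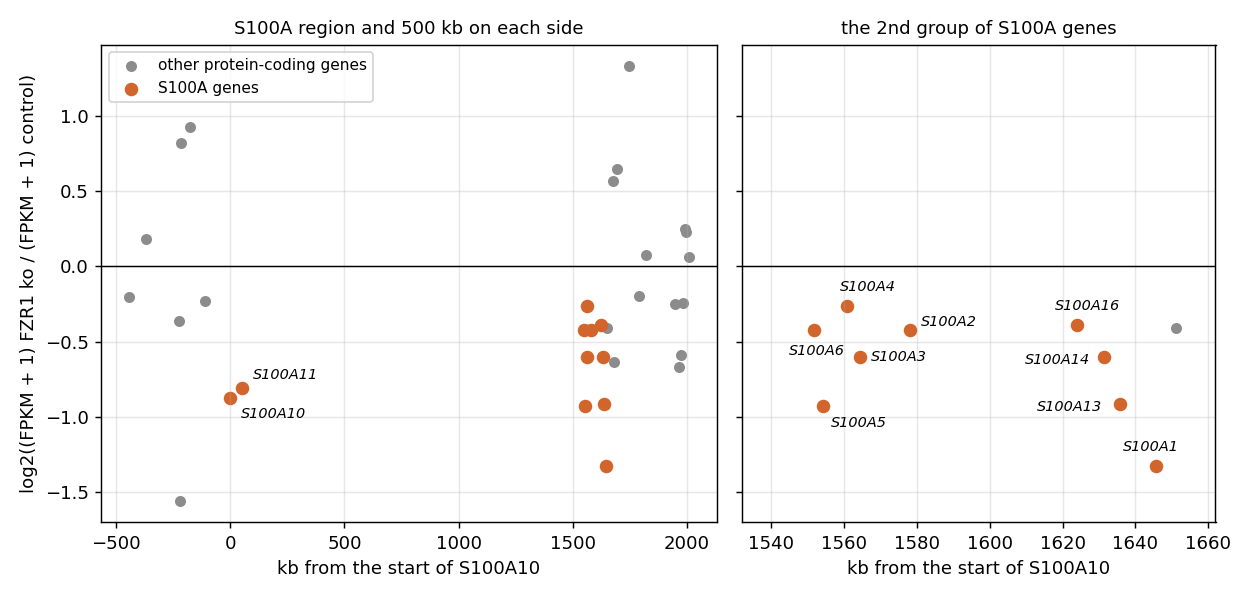
Log2 ratio, FZR1 ko over control with 1 FPKM added to each, of the S100A genes compared (large points) and the other protein-coding genes compared within 500 kb (small grey points) against the distance in kb from the lowest coordinate of S100A10, with the right panel enlarging the second group. The 10 S100A genes that reached 1 FPKM in each of the libraries lie below 0, from -1.32 for S100A1 to -0.26 for S100A4, as does S100A5, which was compared through its control value alone. The 21 other genes lie on both sides of 0.

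Overlapping genes may limit a part of these values. The overlaps below are between whole genes, introns included, and overlaps of exons were not computed. S100A1 lies on the plus strand inside S100A13, which is on the minus strand, and 3606 bases are common to both genes in RefSeq. S100A4 shares 65 bases with S100A5 in RefSeq, and 1930 bases with S100A3 on the same strand in GENCODE. CHTOP overlaps the far end of S100A13 by 296 bases in RefSeq. LOC101928034, a noncoding gene of the table, also overlaps S100A4 by 65 bases in RefSeq. GENCODE places a noncoding gene that is not in the table on the same strand as S100A13, with 5029 bases in common, and others on the opposite strand of S100A11 and S100A6. RefSeq has 10 pseudogenes of S100A11, 0 of which had a value, so the table does not split reads between them. The sources used here do not say whether strand was used in counting. Whether reads of S100A13 and S100A1 could be mistaken for each other in the common stretch was not tested.

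The annexins, which bind membrane phospholipids when calcium rises and are the best known partners of S100 proteins, divided by level. Of 13 annexin genes 11 were compared, and in FZR1 ko 8 of these were higher and 3 lower, with a median ratio of 0.43. The 3 lower ones were the 3 most abundant, so the summed level of the list was lower in FZR1 ko, at 1591 and 1178 FPKM. ANXA2, the partner of S100A10, had 685 FPKM in the control library and 385 in the FZR1 ko library (-0.83), ANXA5 had 362 and 220 FPKM (-0.72), and ANXA1 had 343 and 293 FPKM (-0.23). The 2 past 2-fold, both higher, were ANXA6, at 5.15 and 14.1 FPKM (1.30), and ANXA9, at 0.78 and 2.72 FPKM (1.06), which was compared only because of its FZR1 ko value. Among the 10 annexins with at least 1 FPKM in both libraries, 7 were higher and 3 lower, with 1 past 2-fold. S100A10 and ANXA2 mRNA kept nearly the same proportion: there were 0.559 FPKM of S100A10 for each FPKM of ANXA2 in control and 0.541 in FZR1 ko. For S100A11 and ANXA1 the proportion was 3.996 in control and 2.67 in FZR1 ko.

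The other partners and receptors did not share one direction either. Of 17 genes 15 were compared, of which 8 were higher and 7 were lower, with a median ratio of 0.096. TLR4 and IL1A were compared only because of their control values, and of the 13 genes that reached 1 FPKM in each of the libraries 8 were higher and 5 lower, with 2 past 2-fold upwards and 0 downwards. MYH9, the myosin heavy chain bound by S100A4, had 31.9 FPKM in the control library and 68.6 in the FZR1 ko library (1.08). EZR, which encodes ezrin, the partner of S100P, had 43.4 and 74.4 FPKM (0.77). The FPKM of S100A4 for each FPKM of MYH9 was thus 23.3 in control and 9.02 in FZR1 ko, and that of S100P for each of EZR was 4.12 and 1.59. CACYBP, the calcyclin-binding protein, had 50.3 and 38.6 FPKM (-0.37) and moved with S100A6, whose FPKM for each of CACYBP was 13.6 and 13.2. Of the cargo of S100A13, IL1A had 2.07 and 0.75 FPKM (-0.81) and FGF1 was listed at 0 in both libraries.

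Genes for receptors of secreted S100 proteins were low, apart from BSG. AGER, which encodes RAGE, had 3.62 FPKM in the control library and 1.93 in the FZR1 ko library (-0.66). TLR4 had 4.34 and 0.48 FPKM (-1.85). BSG (basigin) had 824 and 881 FPKM (0.096). PLAT, the tissue plasminogen activator that S100A10 with annexin A2 binds, had 1.29 and 5.25 FPKM (1.45). The abundant IQGAP1, a scaffold protein, had 61.0 and 78.8 FPKM (0.36), and AHNAK, which binds the S100A10 and annexin A2 complex, had 53.4 and 68.9 FPKM (0.36).

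Genes of EF-hand proteins outside the S100 family, a list that holds calcium sensors as well as proteins that do not bind calcium, had a median close to that of all genes. Of 31 such genes 29 were compared, and in FZR1 ko 18 of these were lower and 11 higher, and the median ratio was -0.065. EFHD1 was compared only because of its control value and GCA only because of its FZR1 ko value, and of the other 27 genes 17 were lower and 10 higher. The most abundant were MYL6, a myosin light chain whose EF-hands no longer bind calcium, with 1101 and 1052 FPKM (-0.065), CALM2, 1 of the 3 calmodulin genes, with 527 and 486 FPKM (-0.12), and CAPNS1, the small calpain subunit, with 224 and 203 FPKM (-0.14). With the added 1 FPKM 0 of the 29 were past 2-fold downwards, although EFHD1, at 1.04 and 0.23 FPKM (-0.73), was at 0.221 times its control value without it. There were 2 past it upwards, among them STIM1, the calcium sensor of the endoplasmic reticulum, at 1.22 and 4.18 FPKM (1.22).

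The promoters of the members were set side by side to show their sequences. RefSeq (GRCh38.p14) gives 13 promoter windows of 300 bases for the 9 genes, from 250 bases before a start site to 50 after it, with 3 start sites for S100A13, 2 each for S100A2 and S100A16 and 1 for each of the others. S100A10, S100A6 and S100A11 had windows rich in CpG, with 32, 31 and 22 CpG and 71.7%, 69.3% and 65.3% GC, beside medians of 14 CpG and 58.7% GC over all 35116 windows. S100A13 had 19, 11 and 12 CpG in its 3 windows, and S100P, S100A2, S100A14, S100A4 and S100A16 had 3 to 8 CpG per window. Whether the ratios go with this feature was not tested. Below are 100 bases before a start site for each of 6 members, and bases 200 to 101 before it for S100A10, whose match lies further away. Capitals mark GGGCGG (the core of the SP1 site, searched on both strands), TGANTCA (the AP-1 site, which reads alike on both strands) or TATAAA (the TATA box, searched in the direction of transcription). Matches that overlap an earlier match were not marked, so S100A6 holds a further GGGCGG that begins within its last marked one. The stretches are chr1:151993960-151994059 (S100A10), chr1:152037005-152037104 (S100A11), chr1:153535992-153536091 (S100A6), chr1:153565845-153565944 (S100A2), chr1:153545807-153545906 (S100A4), chr1:153627506-153627605 (S100A13, an inner start site) and chr4:6693778-6693877 (S100P), the first 6 on the minus strand and the last on the plus strand.
S100A10: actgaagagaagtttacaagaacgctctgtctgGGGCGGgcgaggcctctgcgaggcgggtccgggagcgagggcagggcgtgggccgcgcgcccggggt
S100A11: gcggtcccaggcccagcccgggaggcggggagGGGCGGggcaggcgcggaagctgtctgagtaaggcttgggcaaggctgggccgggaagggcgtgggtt
S100A6: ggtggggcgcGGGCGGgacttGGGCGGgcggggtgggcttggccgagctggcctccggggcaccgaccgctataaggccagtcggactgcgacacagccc
S100A2: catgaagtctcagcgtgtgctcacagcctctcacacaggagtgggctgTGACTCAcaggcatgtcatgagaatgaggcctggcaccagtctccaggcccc
S100A4: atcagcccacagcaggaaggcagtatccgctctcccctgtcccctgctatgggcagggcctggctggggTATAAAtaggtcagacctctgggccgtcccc
S100A13: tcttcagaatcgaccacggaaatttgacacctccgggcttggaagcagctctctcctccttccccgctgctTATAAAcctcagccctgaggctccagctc
S100P: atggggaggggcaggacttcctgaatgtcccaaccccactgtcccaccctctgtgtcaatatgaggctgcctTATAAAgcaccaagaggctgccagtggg

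The motifs differed between the members. GGGCGG was present in 5 of the 13 windows (38.5%), those of S100A10, S100A11 and S100A6 and 1 each of S100A16 and S100A13, beside 45.0% of all windows. TATAAA was present in 3 of the 13 windows (23.1%), those of S100A4, S100A13 and S100P, starting 31, 29 and 28 bases before the start site, beside 7.33% of all windows. TGANTCA was present in 1 of the 13 windows (7.69%), that of S100A2, beside 7.71% of all windows. No motif of the 3 was common to all 9 members. A match is only a run of letters, and a window without one gives no information on whether a factor acts there.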

How the data were processed

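The platform for total RNA was the BGISEQ-500. The methods name alignment to the transcriptome with Bowtie2 and quantification with RSEM on hg38, and the submitters' processing notes name Trimmomatic 0.36, HISAT2 2.1.0, Bowtie2 2.2.5 and RSEM. The annotation version and strand setting are not given in the sources used here. The authors deposited FPKM per Entrez gene ID, to 2 decimals. Of 24663 rows, 1630 had no value, and 99.5% of the remaining 23033 matched a symbol in RefSeq (GRCh38.p14, the build of the files).

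Log2 ratios used a pseudocount of 1 FPKM over genes that reached 1 FPKM in either library. A gene past 2-fold has a ratio of at least 1 or at most -1. There is no test, as a condition holds 1 library. The computation was tested on simulated data. Strand, overlaps and transcript length came from GENCODE 44, and promoter stretches were checked against hg38. The trend with GC content and length was removed by subtracting the median of 10 by 10 quantile groups.

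The members, lists and promoter motifs were chosen with earlier results of these data known. Named genes were the members, FZR1, the markers, the other S100 genes and, in each list, genes past 2-fold and the 3 most abundant; MYH9, EZR, CACYBP, IL1A and FGF1, named as partners of a member, and AGER, FLG and TCHH were named after values were seen. Some genes that the rule names are left out of the text. A comparison of the proteins was planned but not made, as protein sequences were not used here. Alternatives were pseudocounts, filters, centring, scaling and a 4-fold threshold. Python 3.11.15, numpy 2.4.6, pandas 2.3.3 and matplotlib 3.10.9 were used.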

Additional observations from a re-analysis of the deposited data

How the results depend on the processing

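The filters on low values leave a single ratio as it is, and centring and rescaling shift all genes nearly alike. Under the settings that can move members unequally, pseudocounts of 0.1 and 5 FPKM and removal of the trend with GC content and length, all 27 values of single members lay below 0. A pseudocount added to both libraries cannot change the sign of a ratio, so only the values without that trend could have come out above 0. Removing that trend brought all 9 members closer to 0 by more than 0.1, for example S100A2 from -0.42 to -0.19 and S100A6 from -0.42 to -0.20. With either pseudocount, centring or either rescaling, 0 members were past 2-fold. The median of the members was -0.42 with a pseudocount of 5 FPKM and, in a setting added after the data were seen, -0.36 without the trend of GC content and length, beside -0.59. The ratio of the summed FPKM was -0.48 without S100A11, also added later, beside -0.59. The median of the other S100 genes was -1.61 with a pseudocount of 0.1 FPKM, -0.45 with 5 FPKM and 0 without a low filter, and that of the neighbours was 0 without it, because genes listed at 0 then enter. The S100-fused list gave no main value, as none of its genes reached 1 FPKM. The share of all genes at least 2-fold lower and higher was 10.02% and 10.8% with a pseudocount of 0.1 FPKM, 1.99% and 1.35% with 5 FPKM, 3.96% and 3.99% without a low filter, and 0.657% and 0.45% past 4-fold. No paired analysis was possible because there is 1 library per condition and no test, and leaving out a replicate could not be done for the same reason. The unknown depth limits the values of low genes, among them S100A14, S100A1 and S100A5.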

Other observations

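S100PBP, which encodes a binding protein of S100P and is no S100 gene itself, stood at 18.2 FPKM in the control library and 9.92 in the FZR1 ko library (log2 ratio -0.82). It lies on chromosome 1 outside the S100 region and was picked after its values were seen.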
